A study of Drosophila melanogaster with 4 samples.

Results

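This account covers the Sfmbt-enriched clusters that lie on the pericentromeric and unplaced sequence of the Drosophila melanogaster genome. The members are every cluster of the combined list on 2LHet, 2RHet, 3LHet, 3RHet, XHet, YHet or U, chosen by sequence name alone. They number 277 of the 8434 clusters in that list. Sfmbt, written dSFMBT in the labels, was immunoprecipitated from chromatin with antibody Q2642 and the recovered DNA was sequenced (ChIP-seq). The chromatin was formaldehyde-treated and came from heads of wild-type Oregon-R flies at the stage given as mixed adult. There were 2 ChIP samples and 2 input chromatin samples of that same strain, genotype and stage. The flies came from population cages and their heads were collected with sieves, so each sample mixes the cell types of many heads, and the labels give no sex. Whether the 2 ChIP samples were collected separately is not in the labels, so their spread may be only technical.

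Sfmbt is a Polycomb group protein. It joins the DNA-binding protein Pho in the Pho repressive complex, which sits at Polycomb response elements and takes part in silencing developmental genes, and the MBT repeats of Sfmbt recognise methylated lysines of histones. Heterochromatin around fly centromeres is rich in transposons and satellite repeats and carries few genes, and it is best known for methylation of histone H3 at lysine 9 and for the protein HP1a. In FlyBase release 5, the sequences named with Het hold mapped heterochromatic scaffolds of a chromosome arm, or of the Y. U strings together scaffolds with no assigned place, so a distance on U need not be a distance on a chromosome.

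Each cluster is a region that the authors called as significantly enriched, with a position and 1 score on a log2 scale. A list exists for each ChIP replicate and for both combined. The scores are the authors' own, and they are compared within a list, or between replicates over shared clusters. A combined cluster is called replicated when it shares at least 1 bp with a cluster of each replicate. Read depth is unknown, and intervals on shares are 95% exact binomial intervals that cover counting error only. Clusters of a library are not independent replicates, and an exact sign-flip test over 2 replicates cannot give a two-sided p below 0.5. Differences between sequences are therefore described with both replicates' values, without a test. No list overlapped itself, and Uextra, 29.0 Mb of further unplaced sequence in the file headers, had 0 clusters in every list.

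Sfmbt clusters were sparse on this sequence in both replicates. The 7 sequences make up 19.3 Mb and held 110 clusters in replicate 1 and 149 in replicate 2, which is 5.69 and 7.71 per Mb. The main arms (X, 4 and both arms of chromosomes 2 and 3) held 53.6 and 52.8 per Mb in the same lists. The replicate mean was 6.70 ± 1.43 per Mb (SD, n = 2), against 53.2 ± 0.535 on the main arms, so the gap was far wider than the spread between replicates. In the combined list the density was 14.3 per Mb against 67.8. Covered length showed the same order, with clusters over 1.75% of the sequence in replicate 1 and 2.44% in replicate 2, against 14.7% and 14.2% of the main arms. The proximal 1 Mb of 2L, 2R, 3L, 3R and X, the arm ends next to the centromeres, lay between, at 33.0 and 38.4 clusters per Mb.

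The 7 sequences differed widely from one another. XHet was the densest, with 24.5 clusters per Mb in replicate 1 and 39.2 in replicate 2, although it is only 0.204 Mb long and these are 5 and 8 clusters. 2RHet, the longest of the mapped heterochromatic sequences at 3.29 Mb, had 32 and 53 clusters (9.73 and 16.1 per Mb). 3LHet had 27 and 32 clusters (10.6 and 12.5 per Mb). 3RHet had 12 and 19 (4.77 and 7.55 per Mb). 2LHet had 5 and 3 clusters. Replicate 2 had more clusters than replicate 1 on every sequence but 2LHet. There its clusters of 11058 and 10061 bp each overlapped 2 clusters of replicate 1. Replicate 2 covered more of 2LHet, 6.11% against 5.06%. U was the longest at 10.0 Mb and held only 29 and 33 clusters, or 2.89 and 3.28 per Mb. Without U, the heterochromatic sequences carried 8.73 and 12.5 clusters per Mb. On YHet, replicate 1 had 0 clusters and replicate 2 had 1. The ranges of the replicate values of 2RHet, 3LHet and 2LHet overlapped, so their order is not settled by these samples, while XHet lay above and U below them in both replicates.

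**Figure D1:**
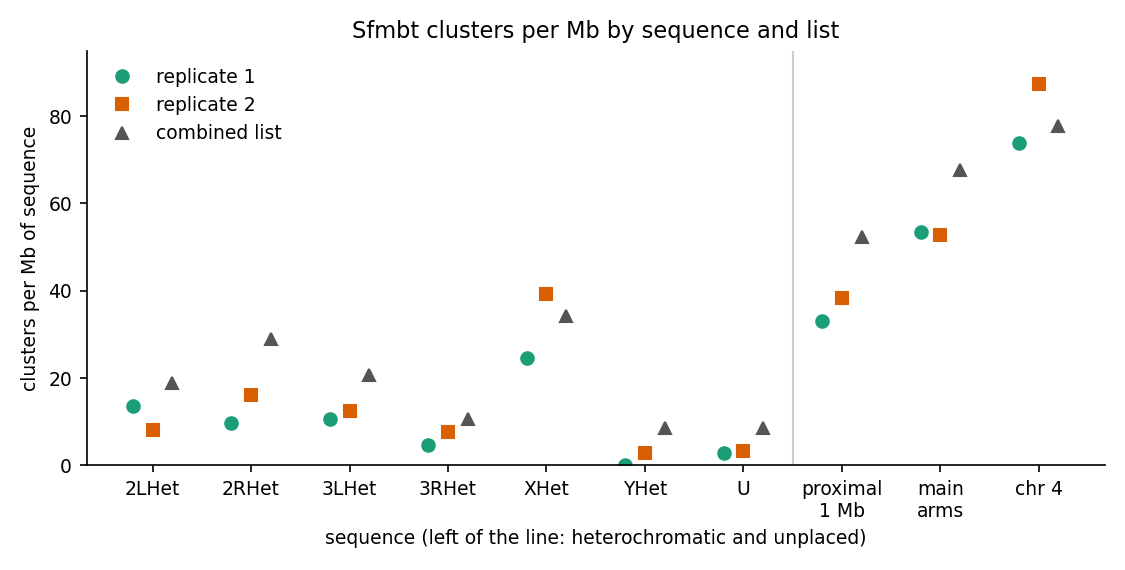
Clusters per Mb of sequence (vertical axis) on each heterochromatic or unplaced sequence and, right of the line, in the proximal 1 Mb of the arms, on the main arms and on chromosome 4. Circles are replicate 1, squares replicate 2 and triangles the combined list; XHet reached 39.2 per Mb in replicate 2 and no other of the 7 sequences passed 28.9 in any list.

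Replicate 2 found more on this sequence than replicate 1, though the whole lists were of like size (6560 and 6508 clusters). The ratio of replicate 2 to replicate 1 was 1.35 here and 0.986 on the main arms, with 1.16 in the proximal 1 Mb of the arms and 1.18 on chromosome 4. It was 1.66 on 2RHet, 1.58 on 3RHet, 1.19 on 3LHet and 1.14 on U. The extra clusters had little counterpart in the other list. Of the 149 clusters of replicate 2, 94 (63.1%, interval 54.8 to 70.8%) overlapped a replicate 1 cluster, against 89.5% of all clusters of that list. Of the 110 clusters of replicate 1, 98 (89.1%, interval 81.7 to 94.2%) overlapped replicate 2, against 87.9% of that whole list. On the main arms the shares were 90.1% for replicate 2 and 87.9% for replicate 1, and in the proximal 1 Mb they were 74.5% and 89.7%. On 2RHet the contrast was 30 of 53 against 30 of 32. The 55 clusters of replicate 2 without a partner were weaker than the other 94 (median score 0.67 against 1.19) and narrower (median 1768 bp against 2659.5 bp).

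A smaller share of the combined list was replicated here than elsewhere. Of the 277 members, 88 (31.8%, interval 26.3 to 37.6%) overlapped both replicates, against 65.1% of the whole list and 66.3% (interval 65.2 to 67.3%) of the main arms. Another 53 (19.1%) overlapped replicate 2 alone, against 7.33% of the whole list. Only 11 (3.97%) overlapped replicate 1 alone, against 8.69%. The remaining 125 (45.1%, interval 39.2 to 51.2%) overlapped neither, against 18.9%. The intervals of the members and of the main arms did not meet for any of these 4 classes. The proximal 1 Mb of the arms was again between, with 50.4% (interval 44.2 to 56.6%) in both replicates and 17.9% in replicate 2 alone. Chromosome 4, which is itself largely heterochromatic, had 66.7% in both and 5.71% in replicate 2 alone.

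By sequence, the replicated members numbered 27 of 95 on 2RHet (28.4%), 24 of 85 on U (28.2%), 20 of 53 on 3LHet (37.7%) and 10 of 27 on 3RHet (37.0%). They were 4 of 7 on XHet, 3 of 7 on 2LHet and 0 of 3 on YHet. The exact intervals of these 7 shares all overlapped one another, so no sequence stood apart in this respect. They differed in what the rest were. On 2RHet 26 of the other members overlapped replicate 2 alone and 40 neither, whereas on U 47 overlapped neither and 9 replicate 2 alone.

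**Figure D2:**
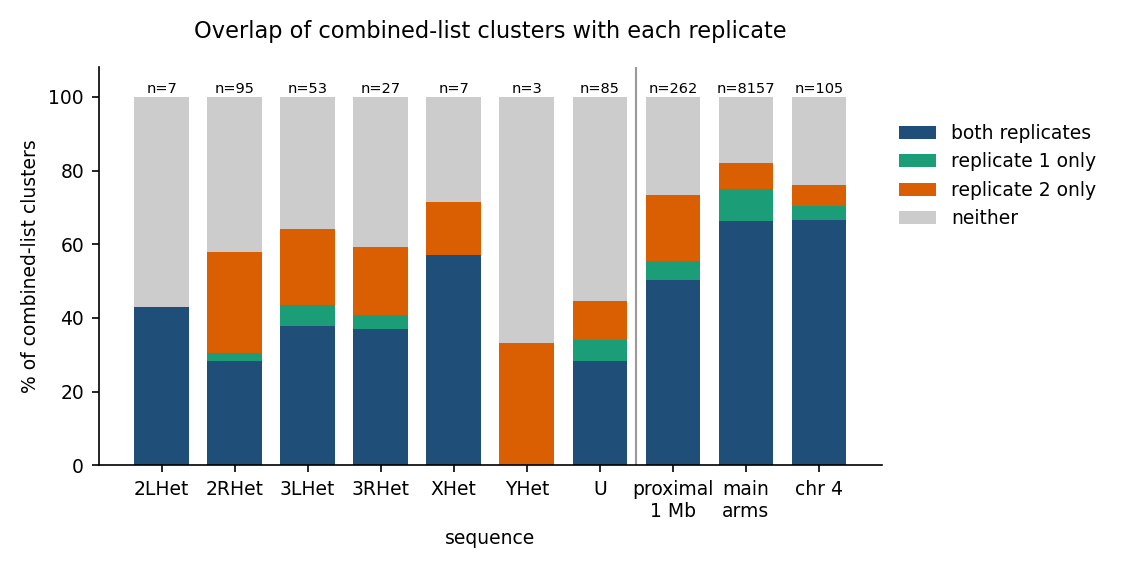
Share of combined-list clusters (vertical axis, percent) found in both replicates, in replicate 1 only, in replicate 2 only or in neither, for each sequence, with the number of clusters above each bar. The share in both was 31.8% over the 277 members and 66.3% on the main arms.

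Width went with replication, though a wider cluster has more room to meet the rule of at least 1 bp. How much of the trend comes from that rule was not tested. All 34 members of 5000 bp or more were replicated (exact interval from 89.7%), as were 99.4% of such clusters on the main arms. From 2000 to 5000 bp, 52 of 86 members were replicated (60.5%, interval 49.3 to 70.8%), against 91.1% on the main arms (interval 90.3 to 91.9%). From 1301 to 2000 bp it was 2 of 70 (2.86%) against 16.1%. The smallest cluster of either replicate list is 1301 bp wide and that of the combined list 1001 bp. Below 1301 bp, 0 of 87 members were replicated, as were 0 of 769 main-arm clusters. Such narrow clusters were 31.4% of the members (interval 26.0 to 37.2%) and 10.1% of the whole list. The median width of all members was 1821 bp against 2249 bp on the main arms, yet that of the replicated members was 3617.5 bp against 2668 bp. Replicated clusters had nearly the same median, 3578.5 bp, in the proximal 1 Mb of the arms and a larger one, 6319 bp, on chromosome 4. From 1301 to 5000 bp a smaller share of members than of main-arm clusters was replicated. The medians of replicated members and main-arm clusters thus come from lists cut to different degrees. In the replicates' own lists the members' median was 2326.5 bp in replicate 1 and 2306 bp in replicate 2, against 2245 and 2212 bp on the main arms.

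A high score in the combined list did not mark a replicated cluster here as it did on the main arms. Of the members, 76 (27.4%, interval 22.3 to 33.1%) fell in the top 10% of the whole list, at a score of 1.20 or more, where 10.0% of all clusters fall. Of these 76, 37 were replicated (48.7%, interval 37.0 to 60.4%), against 750 of 768 on the main arms (97.7%, interval 96.3 to 98.6%). The share was 13 of 38 on U (34.2%, interval 19.6 to 51.4%) and 24 of 38 on the other sequences (63.2%, interval 46.0 to 78.2%). In the proximal 1 Mb of the arms it was 28 of 38 (73.7%, interval 56.9 to 86.6%), also below the main arms. Of the 76 members, 35 overlapped neither replicate, and 32 of those were narrower than 1301 bp. In the next class down, from 0.90 to 1.20, 21 of 29 members were replicated (72.4%, interval 52.8 to 87.3%, which overlaps that of the top 10%). The rank correlation of width with score was 0.277 on the heterochromatic sequences without U (Spearman, n = 192), -0.227 on U (n = 85) and 0.708 on the main arms (n = 8157). Among the 125 members in neither replicate it was -0.554, against -0.353 among the 1465 main-arm clusters in neither. On U it was -0.679 for the 47 members in neither replicate and 0.453 for the 24 replicated ones. These correlations are across clusters of the same libraries and are given as a description.

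**Figure D3:**
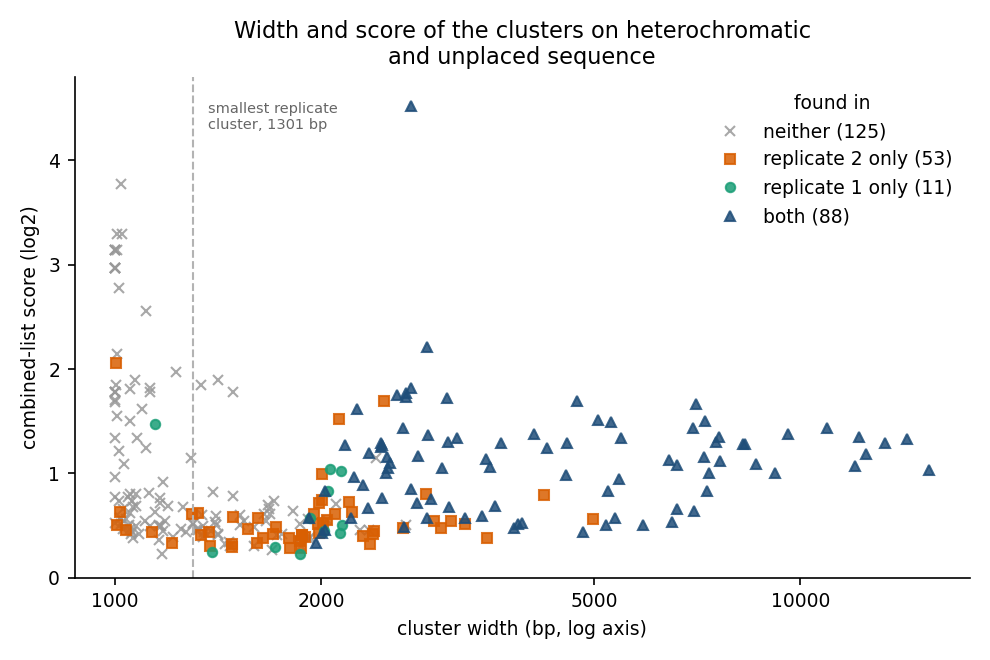
Combined-list score (vertical axis, log2) against width (horizontal axis, bp, log scale) for the 277 members, marked by the replicates in which each was found. Replicated members (triangles) lie at widths near 2000 bp and above, while the crosses at the left, found in neither replicate, reach a score of 3.78 at a width of 1020 bp.

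The strongest site of all lay on 3RHet, and it was replicated. The cluster at 3RHet 2348172 to 2350876, 2705 bp wide, scored 4.67 in replicate 1 and 4.44 in replicate 2, and its combined score was 4.52. The replicate mean was 4.55 ± 0.16 (SD, n = 2), rank 1 of all replicated clusters in the genome. It stood alone, with 349641 bp free of clusters before it and 27064 bp after it, and the highest other score of a replicated member on 3RHet was 1.44 in the combined list. The second strongest replicated member was at U 9287499 to 9290352, with 2.17 in replicate 1 and 2.16 in replicate 2, rank 22 of all. A step of more than 2 log2 units thus lay between the first and the second.

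After these came members on U of much the same strength and width. The cluster at U 3441579 to 3446304 scored 1.87 and 1.88 in replicates 1 and 2. That at U 3879464 to 3882165 scored 1.72 and 2.02. That at U 9710146 to 9712800 scored 1.85 and 1.87, that at U 4667223 to 4669876 scored 1.85 and 1.80, and that at U 9094075 to 9096649 scored 1.87 and 1.75. Of the 7 replicated members with the highest replicate means, 6 were on U and 1 on 3RHet, and all but U 3441579 (4726 bp) were between 2575 and 2854 bp wide. On 2RHet the strongest replicated member, at 385786 to 392828, was 7043 bp wide and scored 1.73 and 1.88. On 3LHet it was that at 1391982 to 1399234, 7253 bp wide, with 1.80 and 1.66.

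Most members with a combined score above 2 were very narrow clusters that neither replicate had. They were 14 of 17 such members, while 4 of 36 main-arm clusters above that score were in neither replicate. Of the 10 members with the highest combined scores, 9 overlapped neither replicate, and those 9 were at most 1024 bp wide. A tie of 4 members at 2.97 falls across the 10th place, and this count holds for any order of the tie. The highest of them was U 3250443 to 3251462, at 3.78. A score of 3.29 was held by U 9011641 to 9012646 and U 9169851 to 9170874. A score of 3.14 was held by 4 members, at 3LHet 1257285, 3RHet 1656478, U 5672912 and U 6329406. A score of 2.97 was held by 2RHet 2149565, U 6123379, U 7515033 and U 7561980, and by 2 clusters on the main arms. None of the 12 clusters at these 3 shared scores overlapped a replicate, and 10 of them were members. Also in neither replicate were YHet 224014 to 225028 at 2.78 and U 7003652 to 7004761 at 2.55.

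These scores were steps, not a continuum. With 2 raised to the power of the score, and scaled so that 2.97 stands for 8, the scores 2.55, 2.78, 2.97, 3.14, 3.29 and 3.78 came out as 6, 7, 8, 9, 10 and 14. Whole-number ratios, with denominators up to 3000, were found for 98.7% of all combined clusters, so such ratios are not particular to members. No source states what the whole numbers count, and they were not used as reads. Exact scores held by more than 1 cluster were found at 89 of the 277 members (32.1%, interval 26.7 to 38.0%), against 16.3% of the whole list. In the top 10% of scores they were held by 25 of 76 members and 29 of 768 main-arm clusters, and 24 of those 25 overlapped neither replicate. The exception was 2RHet 2283256 to 2285700, replicated at 1.19 and 1.10. A score of 1.78 was held by 5 clusters, all of them members and none replicated, at 2RHet 894651, 3RHet 1719835, U 4431925, U 5859907 and U 6225518. The other 9 members of this kind scored between 1.34 and 2.14. A width of exactly 1001 bp, the smallest in the list, was found at 16 members (5.78%) and at 0.748% of main-arm clusters. None of the 16 was replicated, and 12 of them were on U. The narrow clusters were strong on U, with a median of 1.69 below 1301 bp, and weaker on the mapped heterochromatic sequences, with 0.55, against 0.43 on the main arms.

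The median score of all members in the combined list was 0.68, above the 0.59 of the main arms. On U it was 1.10, and without U 0.57. Among clusters of at least 1301 bp, a limit chosen after the data were seen, it was 0.62 with U kept, against 0.63 on the main arms. Replicated members scored higher than replicated main-arm clusters, at 1.11 against 0.78 in the combined list. In the replicates' own scores for them the medians were 1.17 against 0.85 in replicate 1 and 1.24 against 0.81 in replicate 2. Without U the replicated members still had medians of 1.14 and 1.20. Those on U had 1.43 and 1.25. Replicated clusters in the proximal 1 Mb of the arms lay between, at 0.91 combined and 0.98 and 1.00 in the replicates. Those on chromosome 4 did too, at 0.89 combined and 0.97 and 0.91 in the replicates. Replication kept 31.8% of members and 66.3% of main-arm clusters, so these medians come from lists cut to different degrees. In the replicates' full lists the medians were 1.13 against 0.78 on the main arms in replicate 1. In replicate 2 they were 0.90 against 0.76.

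The replicates gave much the same scores to replicated members. Spearman's rho between them was 0.829 across the 88 members, and 0.818 across the 5405 replicated main-arm clusters. Each replicate had a single cluster at 73 of the 88. At the rest the highest score was used, which can come from different places in the replicates. Replicate 2 was the higher at 55 of 88 members (62.5%, interval 51.5 to 72.6%), against 43.1% of all replicated clusters. With the median difference of the whole list (-0.03, replicate 2 minus replicate 1) subtracted, it was the higher at 59 of the 88 (67.0%) and at 49.7% on the main arms. The proximal 1 Mb of the arms gave nearly the same share as the members, 65.2% (86 of 132), and 56.8% before the subtraction. The median difference at members was 0.03 and the SD between members 0.24, so single members differed by far more than the shift. The widest gap was at 2RHet 3147421 to 3149868, with 2.14 in replicate 1 and 1.14 in replicate 2. A nearby narrow cluster, 2RHet 3110742 to 3111885, scored 2.56 in replicate 1 and was missing from replicate 2. On U the SD of the difference was 0.30, with 13 of 24 higher in replicate 2.

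**Figure D4:**
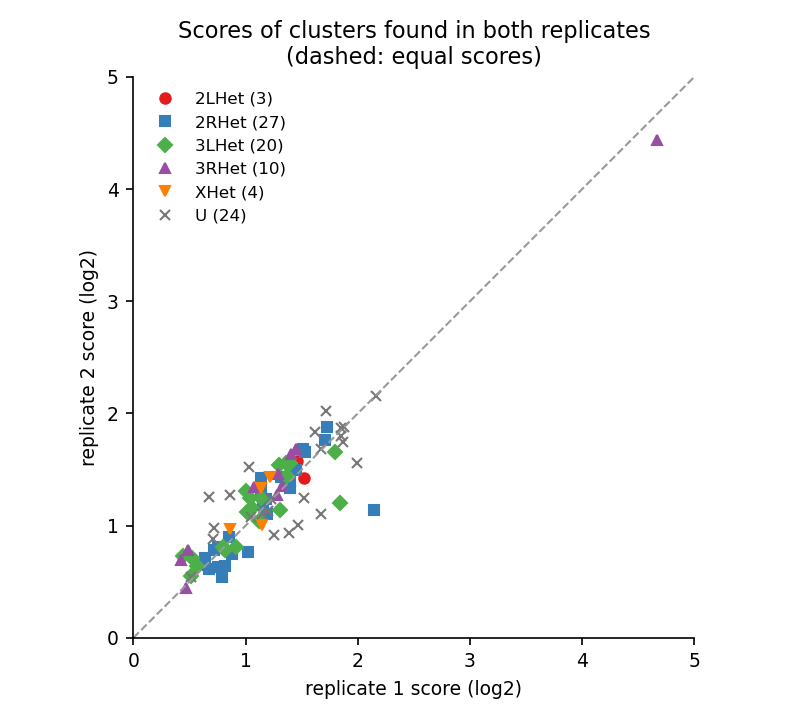
Score in replicate 2 (vertical axis, log2) against replicate 1 (horizontal axis, log2) for the 88 replicated members, marked by sequence, with a dashed line at equal scores. The cluster on 3RHet stands alone at 4.67 and 4.44, and all others lie at 2.17 or below in both.

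Members had a neighbour within 10 kb less often than main-arm clusters, least of all on U and on the few-membered 2LHet and YHet. A neighbour within 10 kb was found for 167 of 277 members (60.3%, interval 54.3 to 66.1%), against 85.6% of the whole list and 86.5% of the main arms. It was 70.8% without U (interval 63.9 to 77.2%) and 36.5% on U (interval 26.3 to 47.6%). In the replicates' own lists the shares were 48.2% in replicate 1 and 59.7% in replicate 2, against 82.1% and 82.4% on the main arms. The median gap to the nearest cluster was 1730 bp on 2RHet, 1627 bp on 3LHet, 3878 bp on 3RHet and 25870 bp on U, against 2200 bp on the main arms. On XHet it was 1252 bp, and all 7 members there had a neighbour within 10 kb. In the combined list, the median gaps of 2RHet, 3LHet and XHet were thus shorter than that of the main arms. The share with a neighbour within 10 kb went the other way on 2RHet (74.7%) and 3LHet (67.9%). In each replicate's own list the shares on 2RHet (59.4% and 66.0%) and 3LHet were also below the main arms. Closer spacing on 2RHet and 3LHet therefore rests on the combined-list median alone. On 2LHet the median gap was 14436 bp, with 3 of 7 members within 10 kb of another, and on YHet 80132 bp, with 0 of 3. Runs of 5 or more clusters with gaps of at most 10 kb held 68 members (24.5%), 45 of them on 2RHet, 16 on 3LHet and 7 on XHet. On the main arms such runs held 55.1% of clusters.

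By number of clusters, the longest run lay near the end of 2RHet, from 3110742 to 3213621. It held 17 clusters over 102.9 kb, of which 6 were replicated, and they covered 55.2% of it. Its widest cluster, at 3175215 to 3187237, was 12023 bp wide and scored 1.15 and 1.19 in the replicates, and the cluster at 3191418 to 3201001 scored 1.39 and 1.33. A second run on 2RHet, from 1298732 to 1341448, held 10 clusters with 2 replicated, the stronger an 8236 bp cluster with 1.32 and 1.43. On 3LHet the run with most clusters was at the very start of the sequence, from 117 to 12291, with 6 clusters that covered 76.4% of it. Only 1 of those 6 was replicated, at 5692 to 7991 with scores of 0.91 and 0.81. A run of 5 on 3LHet, from 581357 to 614880, spanned more sequence, 33.5 kb. On 3RHet the fullest run held 4 clusters from 1799781 to 1835387, and on U 4 clusters from 1172755 to 1189085.

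**Figure D5:**
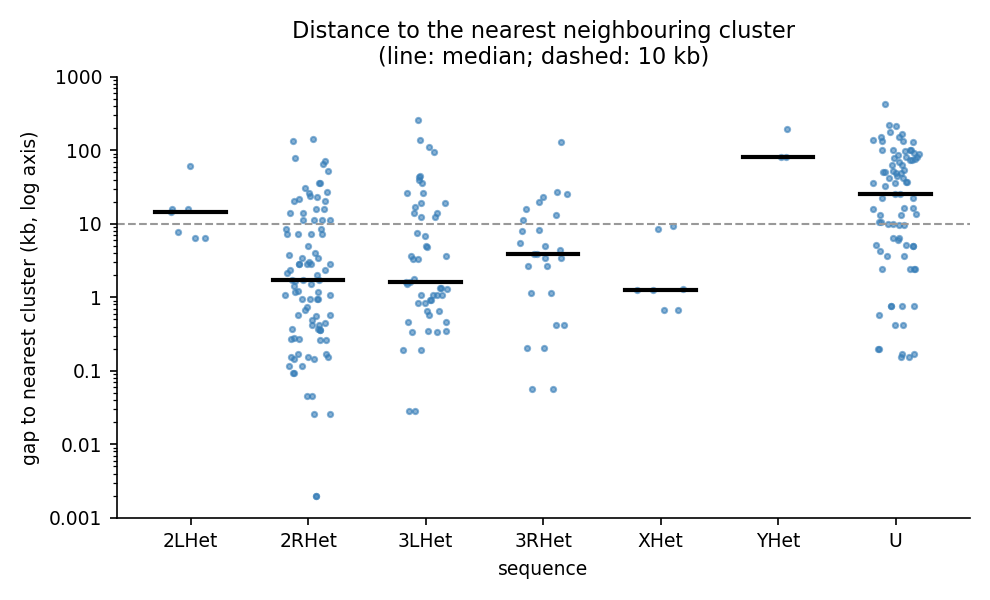
Gap from each member to its nearest neighbouring cluster (vertical axis, kb, log scale) on each sequence, with the median as a line and 10 kb dashed. Most members of 2RHet, 3LHet, 3RHet and XHet lie under the dashed line, and 36.5% of those on U do.

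Some members formed wide domains, at a share that with U included was not separable from that of the whole list. Of the members, 7 (2.53%, interval 1.02 to 5.14%) were wider than 10 kb, against 1.15% of the whole list, with 2 each on 2LHet, 2RHet and 3LHet and 1 on 3RHet. On U it was 0 of 85 (interval up to 4.25%). Without U it was 7 of 192 (3.65%, interval 1.48 to 7.37%), above the 1.10% of the main arms (interval 0.89 to 1.35%). In the proximal 1 Mb of the arms it was 2.67% (interval 1.08 to 5.43%), and on chromosome 4 it was 21.9%. All 7 wide members were replicated, and their median score was 1.29. The widest was 3LHet 2391176 to 2406583, 15408 bp, with 1.04 in replicate 1, where it was split into 3 clusters, and 1.25 in replicate 2. Next were 3RHet 1799781 to 1814111 (14331 bp, scores 1.40 and 1.64) and 3LHet 598394 to 611676 (13283 bp, scores 1.39 and 1.55). On 2RHet the widest, at 469920 to 482110, spanned 12191 bp and overlapped 2 clusters in each replicate. Its highest scores, 1.70 and 1.76, came from different places. The cluster at 470550 to 476691 scored 1.49 in replicate 1, against 1.76 at 469858 to 476831 in replicate 2. The other pair scored 1.70 at 477473 to 479009 in replicate 1 and 0.86 at 478460 to 481688 in replicate 2. In the replicates' own lists replicate 1 had 0 clusters wider than 10 kb on these sequences and replicate 2 had 7, against 39 and 41 on the main arms. The widest member on U, at 1100826 to 1109123, spanned 8298 bp and scored 1.99 in replicate 1 and 1.56 in replicate 2. Replicate 1 reached 9946 bp here and replicate 2 reached 12551 bp.

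The small sequences can be given in full. XHet held 1 run of 7 clusters between 46282 and 97379, and the rest of its 0.204 Mb was empty. The 4 replicated ones were at 55702 to 59183 (1.13 in replicate 1 and 1.34 in replicate 2), 59852 to 62558 (0.86 and 0.97), 73259 to 77531 (1.21 and 1.44) and 78784 to 86087 (1.15 and 1.01). The cluster at 66963 to 71945 was found in replicate 2 alone, at 0.77, and those at 46282 and 95559 in neither. Replicate 2 was thus the higher at 3 of 4.

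2LHet had 2 wide replicated clusters, at 27173 to 39658 (12486 bp, scores 1.52 and 1.43) and 163827 to 174769 (10943 bp, scores 1.46 and 1.57). A narrower replicated cluster lay at 254542 to 256882 (0.79 and 0.64). The other 4, at 11678, 47328, 55065 and 190708, scored 0.45 to 0.92 in the combined list and overlapped neither replicate. On YHet the cluster at 26157 to 30385 was found in replicate 2 alone, at 1.08. The others there, at 224014 and 305161, were 1015 and 1001 bp wide and in neither replicate.

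Clusters did not fill the long sequences evenly. On 3RHet the first 1.52 Mb, 60.5% of the sequence, held no cluster in any of the 3 lists, and all 27 members lay between 1523154 and 2381491. On 2RHet the longest stretch without a cluster was 487.7 kb in replicate 1 and 485.9 kb in replicate 2, at nearly the same place after 2285496. On 3LHet it was 616.9 and 617.1 kb, after 1571902. On 2RHet and 3LHet the longest empty stretches of both replicates thus had nearly the same edges. On U they did not, with 1.60 Mb after 1842035 in replicate 1 and the first 1.10 Mb in replicate 2. How much of each stretch was open to reads was not tested.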

How the data were processed

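The series holds 2 ChIP samples, and the labels name an input for each, whose own signal was not analysed here. The authors deposited regions of significant enrichment for each replicate and for the replicate set, in FlyBase release 5 coordinates per the file headers. Bowtie 0.12.7 is in the submitters' processing notes. The peak caller with its threshold is not given in the sources used here, nor is the handling of duplicate and multiply mapped reads, which decides what can be called on repeats, nor how the replicate set was made.

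The deposited scores are log2 values, settled from the values: powers of 2 of score differences were whole-number ratios (denominator up to 3000, relative tolerance 1e-11) for 98.7% of combined clusters and 99.9% and 99.6% in replicates 1 and 2, but for at most 0.594% with base e or 10. Each list has its own offset.

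Lists were used unfiltered. A replicate's score for a member came from the overlapping cluster with the highest score. In replicate 2, 6 clusters lay under more than 1 member, and in replicate 1, 0. Lengths are those of the file headers, any gaps included, and the main arms contain their proximal ends and chromosome 4. Members, classes and named regions were chosen with earlier results of these data known. The regions named by rule are the 10 highest combined scores, the strongest and the widest member and the run with most clusters on each sequence, shared scores in the top 10%, and every member of sequences with 10 or fewer. Other regions were named after their values were seen. No release 5 genome or annotation was used and the available gene table is of release 6, so no gene or base sequence is given. Counting was tested on simulated data. Tools were SciPy 1.17.1, pandas 2.3.3, NumPy 2.4.6, matplotlib 3.10.9 and Python 3.11.15.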

Additional observations from a re-analysis of the deposited data

How the results depend on the processing

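Values were recomputed for 6 results, giving 36 alternative values, of which 11 stayed within the replicate SD or the exact interval of the reported value. No paired analysis was possible because the inputs, which share replicate numbers with the ChIP samples, have no values here. Requiring at least the median score of the whole list (0.59) gave a replicated share of 44.9% (main arms 96.1%), a density ratio to the main arms of 0.242, covered length of 2.55%, a median width of 2097.5 bp, a median score of 1.16 and 38.6% with a neighbour within 10 kb. Without U, the density ratio was 0.305, covered length 6.12%, median width 1872 bp and the neighbour share 70.8%; the median score, 0.57, then lay below that of the main arms. Keeping clusters of at least 1301 bp, chosen after the data were seen, gave a replicated share of 46.3% (main arms 73.2%), a density ratio of 0.160, covered length of 3.26% and a median width of 2302 bp. The median score was then 0.62, also below that of the main arms (0.63). A gap of 5 kb gave a neighbour share of 50.2% and one of 20 kb gave 71.1%. Leaving a replicate out of the overlap rule, so that only the other must overlap, gave replicated shares of 35.7 to 50.9%. For the other results the combined list was instead cut to clusters that overlap 1 given replicate. This kept 99 members for replicate 1 and 141 for replicate 2. Density ratios were then 0.101 to 0.147 (against 0.211) and covered length 2.36 to 2.81% (against 3.75%). Median widths were 2702 to 3159 bp, median scores 0.75 to 1.06 and neighbour shares 37.4 to 54.6%. Under every alternative the replicated share, density and neighbour share stayed below those of the main arms. Depth is unknown, and 2 replicates allow no test between sequences.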
